A study of Mus musculus with 9 samples.

Results

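The enzymes described here are 10 genes whose products modify collagen: the lysyl oxidases Lox, Loxl1, Loxl2, Loxl3 and Loxl4, the alpha subunits of prolyl 4-hydroxylase P4ha1, P4ha2 and P4ha3, and the lysyl hydroxylases Plod1 and Plod2. They were taken from a list of symbols, matched through the Ensembl identifiers of the count tables, and make up 10 of the 49671 gene identifiers there. This list and the pathway lists below were chosen with earlier results of these data known. Shares over all genes set beside their counts are therefore descriptive. All 10 passed the filter on low counts, among 15261 genes tested. P4ha3 passed it through its knockout libraries, since it had at most 4 reads in any wild-type library.

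The study sequenced polyadenylated RNA from mouse left ventricle in 9 libraries of 4 groups: 3 of dSG knockout (KO) mice given ifetroban, 2 of dSG KO mice given vehicle, 2 of wild-type (WT) mice given ifetroban and 2 of WT mice given vehicle. dSG is the usual short name of delta-sarcoglycan, a membrane protein of heart and skeletal muscle that the gene Sgcd encodes, and mice that lack it develop a cardiomyopathy with scarring. Ifetroban blocks the thromboxane receptor. The strain, age, dose and duration of treatment, and how the KO allele was made, were not given in the sources used here. Nothing there says that replicates were separate mice, so the p-values speak of the spread among these libraries and not necessarily among mice.

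Collagen chains are modified inside the cell before they are secreted. Prolyl 4-hydroxylase, a complex of alpha subunits with the disulfide isomerase P4hb, hydroxylates prolines and so lets the triple helix hold at body temperature. Lysyl hydroxylases hydroxylate lysines, which sets the kind of cross-link that can form later. Both need iron, oxoglutarate and vitamin C. Outside the cell the copper enzymes of the lysyl oxidase family oxidise lysines and hydroxylysines of collagen and elastin to aldehydes, which then join neighbouring molecules. In scarred heart, mainly fibroblasts make these enzymes, and cross-linked collagen stiffens the wall.

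Libraries held 21299748 to 31394548 counts in genes. Sgcd, the targeted gene, had 9.77, 16.4 and 18.5 CPM (reads scaled to library size) in KO ifetroban libraries and 7.49 and 12.1 in KO vehicle libraries, against 33.1 and 31.2 in WT ifetroban libraries and 11.1 and 28.9 in WT vehicle libraries. At 11.1 CPM, WT vehicle 1 as labelled lies inside the KO range and in this gene goes against its label. It lay with the other WT libraries in Lox (4.0 CPM, against 17.9 or more in KO) and P4ha3 (1 read, against 11 or more). Both are members whose genotype difference is described below with this library as WT, so they do not check its label. KO vehicle replicate 1 held 82.3 CPM summed over 5 liver genes, against 0.832 to 7.20 in the other libraries. Long transcripts were low in KO ifetroban 1, both KO vehicle libraries and WT vehicle 1, and high in the other 5 libraries. Within KO, Sgcd had 7.49 to 12.1 CPM in the libraries low in long transcripts and 16.4 and 18.5 CPM in those high. The part of this trend in the Sgcd level of WT vehicle 1 was not tested. For Lox, Loxl1, Loxl4 and P4ha3, genotype values without both KO vehicle 1 and WT vehicle 1 are given too. Defining markers of cardiomyocytes, fibroblasts and macrophages were detected in every library, with none of the 10 genes of each list at 0.

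With both treatments averaged, the lysyl oxidases Lox and Loxl1 rose in KO ventricles (edgeR's quasi-likelihood test, Benjamini-Hochberg adjusted p under 0.05). The rare prolyl hydroxylase subunit P4ha3 had an adjusted p under 0.05 as well, but it was tested at all because of its reads in KO, so it had to differ and its call adds no support. Counts of members here, whether called, at an unadjusted p or without overlap, include it, as does the median. The 3 members called higher compare with 0.505% of all tested genes, and 0 members were called lower, where 0.0328% of genes were. Loxl2, Loxl3 and Loxl4 had positive fold changes that missed the threshold, and those of P4ha1, P4ha2, Plod1 and Plod2 were within 0.22 of 0 on the log2 scale. At an unadjusted p under 0.05 the count was 6 members higher (all 5 lysyl oxidases and P4ha3) against 10.6% of all genes. The median log2 fold change of the 10 was 0.87, beside -0.00 over all tested genes. In every KO library the level was above that in every WT library for 6 members (Lox, Loxl1, Loxl2, Loxl4, P4ha1 and P4ha3), where 5.03% of all genes did so. The separation of P4ha3 adds no support there either.

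**Figure D1:**
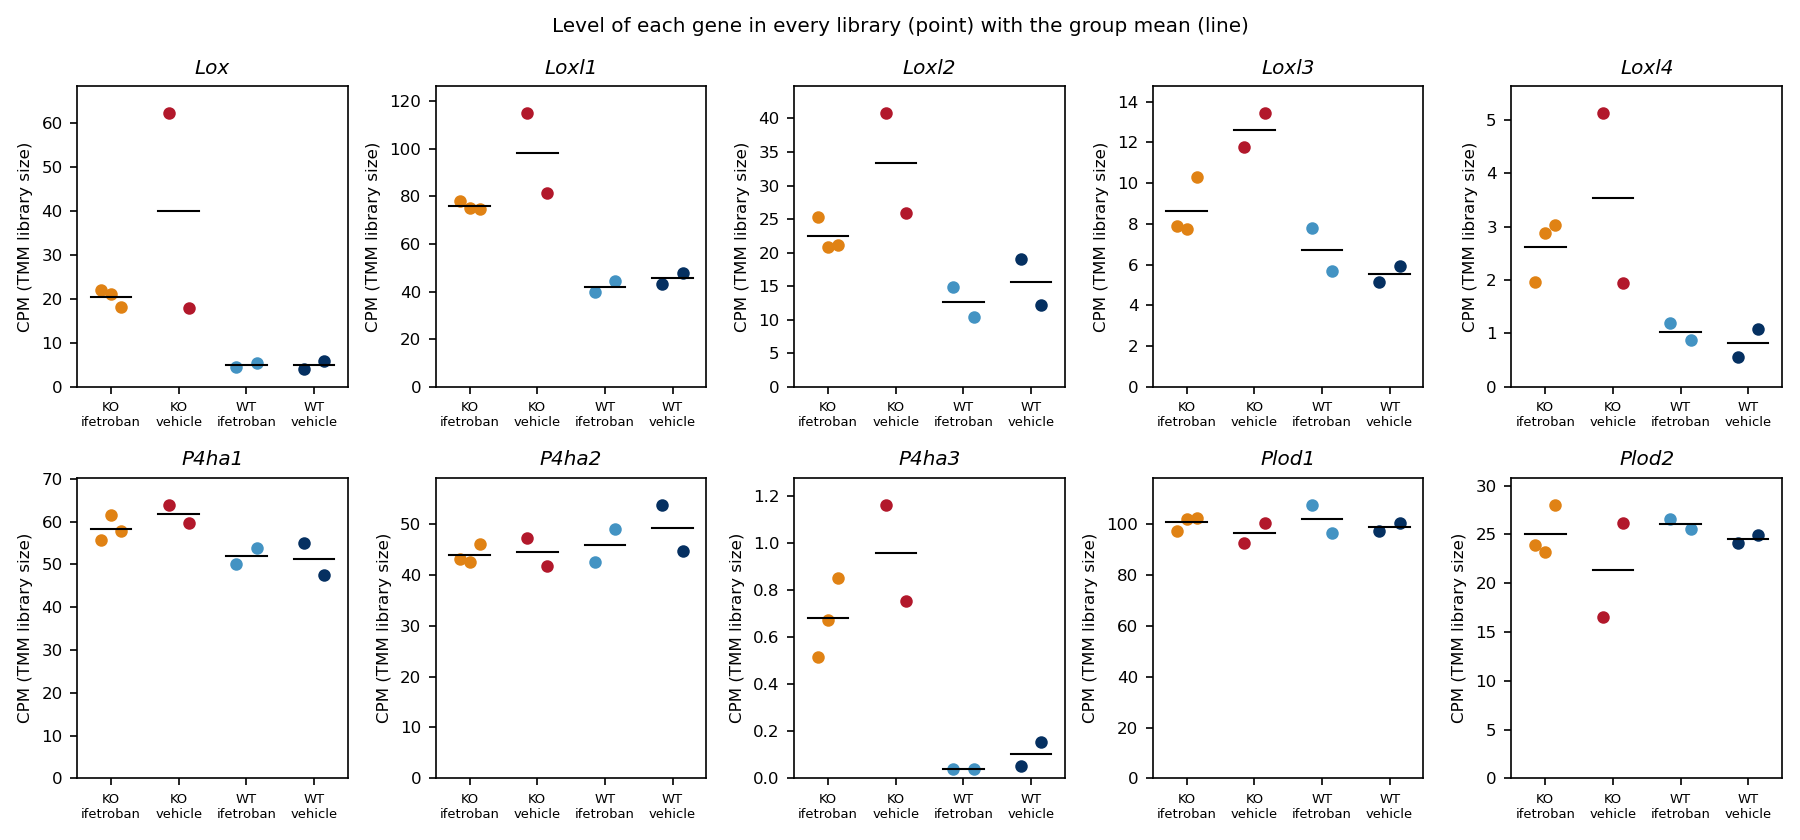
Level of each of the 10 genes in CPM (y axis, TMM library size, starting at 0) in the 4 groups (x axis); each point is 1 library and each line a group mean. The 5 KO points of Lox lie between 17.9 and 62.2 CPM and the 4 WT points between 4.0 and 5.8 CPM, whereas the points of P4ha2, Plod1 and Plod2 overlap between genotypes.

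Lox, on chromosome 18 (GRCm38, chr18:52516067-52529867, minus strand, ENSMUSG00000024529), is the founding lysyl oxidase of collagen and elastin, secreted as a proenzyme. It had 22.1, 21.1 and 18.2 CPM in KO ifetroban libraries and 62.2 and 17.9 CPM in KO vehicle libraries, against 4.53 and 5.31 CPM in WT ifetroban libraries and 4.0 and 5.8 CPM in WT vehicle libraries. KO vehicle replicate 1 stood well above the other 4 KO libraries, and the genotypes did not overlap. The averaged KO-over-WT log2 fold change was 2.54 ± 0.33 (SE, n = 5 KO and 4 WT libraries; 95% interval 1.79 to 3.29; edgeR adjusted p = 0.0248). Without KO vehicle replicate 1 the fold change was 1.96 with an edgeR adjusted p of 0.00420, and without both it and WT vehicle replicate 1 it was 1.85 with an edgeR adjusted p of 0.00469.

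Loxl1 (chr9:58287738-58313186, minus strand, ENSMUSG00000032334) encodes the family member best known for renewal of elastic fibres in mice. Its levels were 78.2, 75.3 and 74.8 CPM in KO ifetroban and 114.9 and 81.3 CPM in KO vehicle, against 39.7 and 44.2 CPM in WT ifetroban and 43.3 and 47.7 CPM in WT vehicle. Each KO library exceeded each WT library, and the 3 KO ifetroban libraries lay within 4 CPM of each other. Loxl1 rose in KO by a log2 fold change of 0.98 ± 0.13 (SE; 95% interval 0.69 to 1.27; edgeR adjusted p = 0.0248), and by 0.85 without KO vehicle replicate 1 (edgeR adjusted p = 0.0240). Without both that library and WT vehicle replicate 1 the value was 0.82 and no longer passed (edgeR adjusted p = 0.0504).

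Loxl2, Loxl3 and Loxl4 carry scavenger receptor domains that Lox and Loxl1 lack. Loxl2 (chr14:69609068-69695834, plus strand, ENSMUSG00000034205) had 25.4, 20.8 and 21.1 CPM in KO ifetroban and 40.8 and 25.9 CPM in KO vehicle, against 14.8 and 10.4 CPM in WT ifetroban and 19.1 and 12.2 CPM in WT vehicle. The genotypes did not overlap, although the lowest KO library (20.8 CPM) and the highest WT library (19.1 CPM) were close. Its averaged log2 fold change was 0.96 ± 0.20 (SE; 95% interval 0.51 to 1.41; edgeR adjusted p = 0.0690), which missed the threshold.

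Loxl3 (chr6:83034173-83052562, plus strand, ENSMUSG00000000693) had 7.90, 7.76 and 10.3 CPM in KO ifetroban and 11.8 and 13.4 CPM in KO vehicle, against 7.79 and 5.67 CPM in WT ifetroban and 5.13 and 5.95 CPM in WT vehicle. The vehicle groups were apart, while KO ifetroban replicate 2 fell just short of WT ifetroban replicate 1. The averaged log2 fold change was 0.77 ± 0.16 (SE; 95% interval 0.40 to 1.14; edgeR adjusted p = 0.0738). Exons of Htra2 on the opposite strand cover 11.6% of the exon bases of Loxl3, and the counts used were those of 1 strand.

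Loxl4 (chr19:42593982-42612813, minus strand, ENSMUSG00000025185) was the lysyl oxidase with the fewest reads. It had 1.96, 2.88 and 3.02 CPM in KO ifetroban and 5.12 and 1.95 CPM in KO vehicle, against 1.19 and 0.872 CPM in WT ifetroban and 0.565 and 1.08 CPM in WT vehicle. The genotypes did not overlap, and KO vehicle replicate 1 was again the highest library. Its averaged log2 fold change was 1.71 ± 0.35 (SE; 95% interval 0.91 to 2.5; edgeR adjusted p = 0.0686), and 1.1 without both KO vehicle 1 and WT vehicle 1. Over all libraries 373 KO reads faced 92 WT reads, a ratio of 3.10 after scaling to depth (95% counting interval 2.46 to 3.94, which leaves out differences between mice).

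Per transcript length, the 5 lysyl oxidases together reached 73.2 to 84.0 TPM (reads scaled to transcript length and library size) in KO ifetroban and 75.7 to 126.4 TPM in KO vehicle, against 41.0 to 43.0 TPM in WT ifetroban and 34.9 to 46.7 TPM in WT vehicle. Loxl1 supplied most of this in each library, with 58.9% to 68.3% of the family sum in KO and 68.0% to 75.0% in WT. The share of Lox was 10.3% to 22% in KO and 4.47% to 6.23% in WT, with no overlap. Shares of Loxl2 (11.5% to 13.3% in KO, 10.7% to 18.8% in WT) and Loxl3 (4.32% to 7.97% in KO, 5.94% to 9.55% in WT) overlapped between genotypes.

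**Figure D2:**
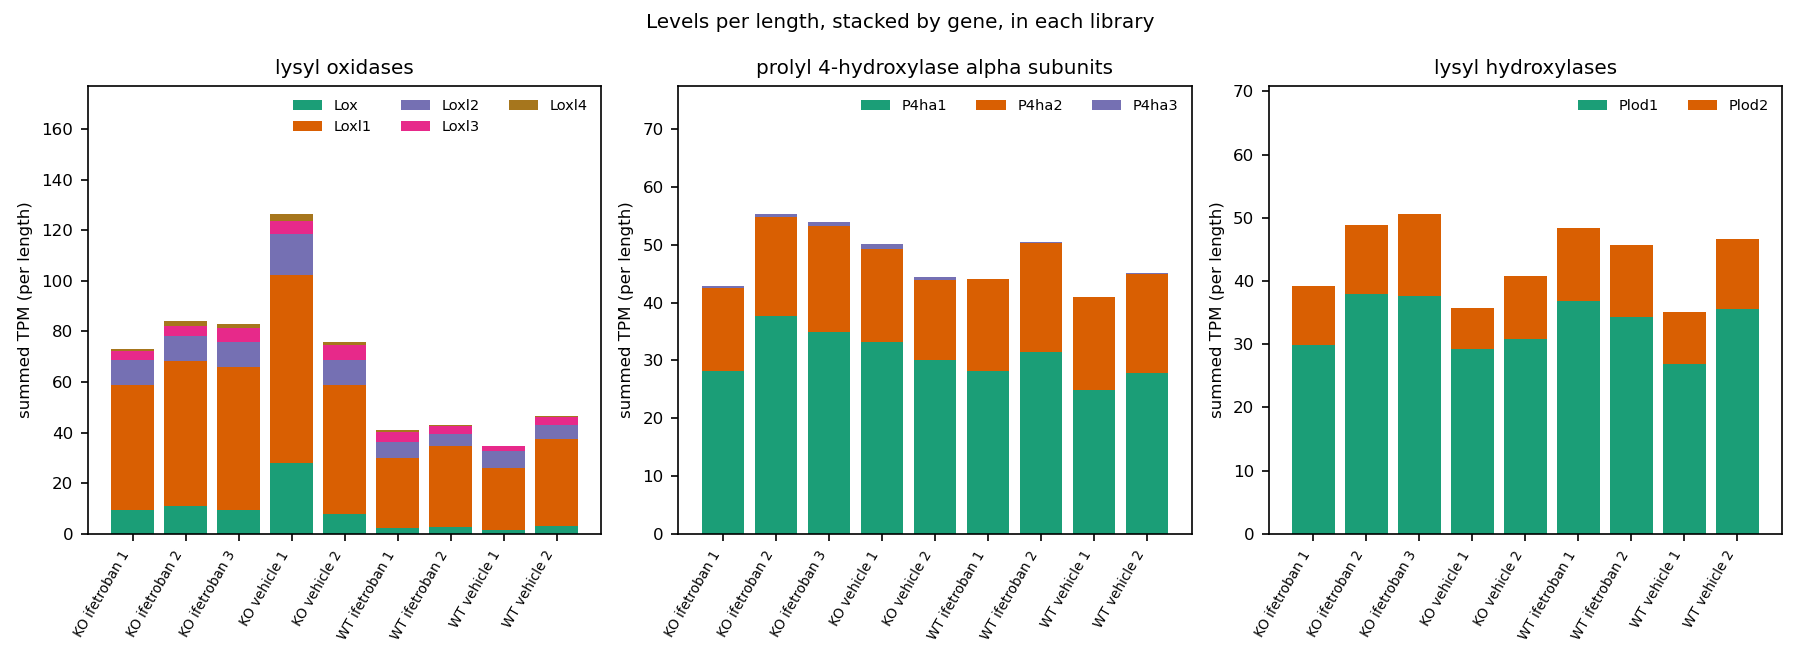
Summed TPM (y axis, per transcript length) of the lysyl oxidases, the prolyl 4-hydroxylase alpha subunits and the lysyl hydroxylases in each of the 9 libraries (x axis), stacked by gene. The lysyl oxidase stack is 73.2 TPM or more in the KO libraries and 46.7 TPM or less in the WT libraries, with Loxl1 as its main layer, while the stacks of both hydroxylase families overlap between genotypes.

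The 3 alpha subunits differ in use: P4ha1 is the main form in most cells, P4ha2 is prominent in cartilage and bone cells, and P4ha3 is rare in adult tissue. As a description only, the RefSeq sequence (GRCm38.p6, plus strand, 5′ to 3′) is shown for the 250 bases before each start that RefSeq gives. Matches to the GC box GGGCGG, read on either strand, are in capitals. The windows are chr7:100285270-100285519 for P4ha3, chr10:59323046-59323295 for P4ha1 and chr11:54100674-54100923 for P4ha2. The P4ha2 window lies inside the GENCODE span of that gene, which opens at an earlier transcript start; the windows of P4ha3 and P4ha1 end just before their GENCODE starts.
P4ha3: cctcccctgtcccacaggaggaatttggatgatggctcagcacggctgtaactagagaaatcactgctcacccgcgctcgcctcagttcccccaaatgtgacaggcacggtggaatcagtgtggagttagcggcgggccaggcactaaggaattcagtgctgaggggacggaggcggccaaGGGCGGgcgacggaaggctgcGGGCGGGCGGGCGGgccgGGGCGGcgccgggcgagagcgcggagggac
P4ha1: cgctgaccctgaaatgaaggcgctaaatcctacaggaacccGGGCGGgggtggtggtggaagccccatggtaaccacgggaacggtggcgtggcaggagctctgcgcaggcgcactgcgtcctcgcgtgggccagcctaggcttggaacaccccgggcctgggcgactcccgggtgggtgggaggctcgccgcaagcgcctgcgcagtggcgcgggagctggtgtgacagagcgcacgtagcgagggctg
P4ha2: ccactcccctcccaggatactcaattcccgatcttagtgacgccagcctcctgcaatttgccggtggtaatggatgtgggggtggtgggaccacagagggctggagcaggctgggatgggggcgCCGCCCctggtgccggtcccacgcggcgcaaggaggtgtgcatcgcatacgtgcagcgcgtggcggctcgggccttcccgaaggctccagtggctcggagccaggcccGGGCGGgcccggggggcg
The P4ha3 window held 5 matches, of which 3 overlap in 1 run, the P4ha1 window 1 and the P4ha2 window 2, and 32.7% of 32851 mouse windows of the same length held at least 1. The hypoxia-response core ACGTG, on either strand, had 1 match in P4ha1, 1 in P4ha2 and 0 in P4ha3, and 16.6% of windows held it. The TEAD motif GGAATG, held by 12.6% of all windows, had 0 matches in these 3 windows. The same was true of the AP-1 motif TGANTCA, held by 6.75% of windows. All 3 windows were rich in G and C, at 67.2% for P4ha3, 69.6% for P4ha1 and 70.0% for P4ha2.

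P4ha3 (chr7:100285520-100319699, plus strand, ENSMUSG00000051048) had 11, 22 and 22 reads in KO ifetroban and 25 and 19 reads in KO vehicle, against 1 and 1 in WT ifetroban and 1 and 4 in WT vehicle. As CPM these were 0.514, 0.675 and 0.853 in KO ifetroban and 1.16 and 0.754 in KO vehicle, against 0.0384 and 0.0396 in WT ifetroban and 0.0513 and 0.155 in WT vehicle. Every KO library was well above every WT library, in which the gene was at the edge of detection.

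The averaged log2 fold change of P4ha3 was 3.53 ± 0.48 (SE; 95% interval 2.45 to 4.60; edgeR adjusted p = 0.0284), a test the gene entered through its KO libraries, with a size that depends on edgeR's prior count of 0.125. The direct ratio of KO to WT CPM was 10.8 (99 against 7 reads; 95% counting interval 5.06 to 27.6). It was 17.7 within ifetroban (55 against 2 reads; interval 4.67 to 149.7) and 8.55 within vehicle (44 against 5 reads; interval 3.40 to 27.6). Without KO vehicle replicate 1 the fold change was 3.36 and its edgeR adjusted p 0.0590, and without both that library and WT vehicle 1 they were 3.12 and 0.0799.

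P4ha1 (chr10:59323296-59373304, plus strand, ENSMUSG00000019916) had 55.7, 61.7 and 57.7 CPM in KO ifetroban and 63.9 and 59.7 CPM in KO vehicle, against 50.1 and 53.9 CPM in WT ifetroban and 55.0 and 47.6 CPM in WT vehicle. The genotypes only just failed to overlap, with 55.7 CPM in the lowest KO library beside 55.0 CPM in the highest WT library. Its averaged log2 fold change of 0.22 ± 0.11 (SE; 95% interval -0.02 to 0.45) had an edgeR adjusted p of 0.333. The interval leaves out a doubling.

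P4ha2 lies on chromosome 11 (chr11:54100095-54131665, plus strand, ENSMUSG00000018906), 6.11 Mb from Sgcd. It had 43.2, 42.6 and 46.0 CPM in KO ifetroban and 47.2 and 41.9 CPM in KO vehicle, against 42.6 and 49.1 CPM in WT ifetroban and 53.8 and 44.7 CPM in WT vehicle. The groups overlapped throughout. The averaged log2 fold change was -0.10 ± 0.11 (SE; 95% interval -0.36 to 0.15; edgeR adjusted p = 0.659).

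In TPM the alpha subunits summed to 42.9 to 55.3 in KO ifetroban and 44.4 to 50.1 in KO vehicle, against 44.0 to 50.4 in WT ifetroban and 40.9 to 45.1 in WT vehicle. P4ha1 held 64.7% to 68.0% of the sum in KO and 60.8% to 64.0% in WT, so its share did not overlap between genotypes. The share of P4ha2 was 31.0% to 34.0% in KO and 35.9% to 39.2% in WT. P4ha3 supplied 0.795% to 1.58% in KO and 0.0602% to 0.262% in WT, a small part in each library.

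Lysyl hydroxylase 1, from Plod1 (chr4:147909753-147936767, minus strand, ENSMUSG00000019055), acts on lysines within the collagen helix. Plod1 had 97.5, 102.3 and 102.5 CPM in KO ifetroban and 92.6 and 100.6 CPM in KO vehicle, against 107.7 and 96.5 CPM in WT ifetroban and 97.6 and 100.5 CPM in WT vehicle. No group stood apart, and the averaged log2 fold change was -0.03 ± 0.10 (SE; 95% interval -0.26 to 0.20; edgeR adjusted p = 0.910). The interval confines a KO difference in Plod1 to well under a doubling or halving.

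Plod2 (chr9:92542223-92608428, plus strand, ENSMUSG00000032374) encodes the lysyl hydroxylase of the telopeptides, the non-helical ends where cross-links start. Its levels were 23.9, 23.2 and 28.0 CPM in KO ifetroban and 16.6 and 26.2 CPM in KO vehicle, against 26.6 and 25.6 CPM in WT ifetroban and 24.1 and 24.9 CPM in WT vehicle. KO vehicle replicate 1 was the lowest library for Plod2, whereas it was the highest for Lox, Loxl1, Loxl2, Loxl4, P4ha1 and P4ha3. The averaged log2 fold change was -0.13 ± 0.15 (SE; 95% interval -0.46 to 0.20; edgeR adjusted p = 0.683). Lysyl hydroxylase TPM summed to 39.2 to 50.6 in KO ifetroban and 35.8 to 40.8 in KO vehicle, against 45.7 to 48.3 in WT ifetroban and 35.2 to 46.7 in WT vehicle.

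Ordered by mean TPM over the 5 KO libraries, Loxl1 came first at 57.7 ± 9.96 (SD), followed by Plod1 at 33.1 ± 4.32 and P4ha1 at 32.8 ± 3.78, which overlapped each other. P4ha2 at 16 ± 1.86, Lox at 13.2 ± 8.29, Loxl2 at 11.0 ± 2.84 and Plod2 at 9.92 ± 2.33 also overlapped as neighbours. Loxl3 at 4.97 ± 1.03, Loxl4 at 1.60 ± 0.680 and P4ha3 at 0.570 ± 0.173 followed, each apart from the next. Over the 4 WT libraries, Plod1 (33.4 ± 4.51), Loxl1 (29.8 ± 4.56) and P4ha1 (28.1 ± 2.70) overlapped at the top. P4ha2 (17.0 ± 1.42), Plod2 (10.6 ± 1.5) and Loxl2 (5.74 ± 0.907) came next, each apart from its neighbours, and Loxl3 (3.01 ± 0.756) overlapped with Lox (2.33 ± 0.595). Loxl4 (0.504 ± 0.182) and P4ha3 (0.0518 ± 0.0443) were lowest. The place of Lox above Loxl2 and Plod2 in KO rested on KO vehicle 1: without it, over 4 KO libraries, Lox averaged 9.48 ± 1.35 TPM, Loxl2 9.76 ± 0.111 and Plod2 10.8 ± 1.59 (SD).

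**Figure D3:**
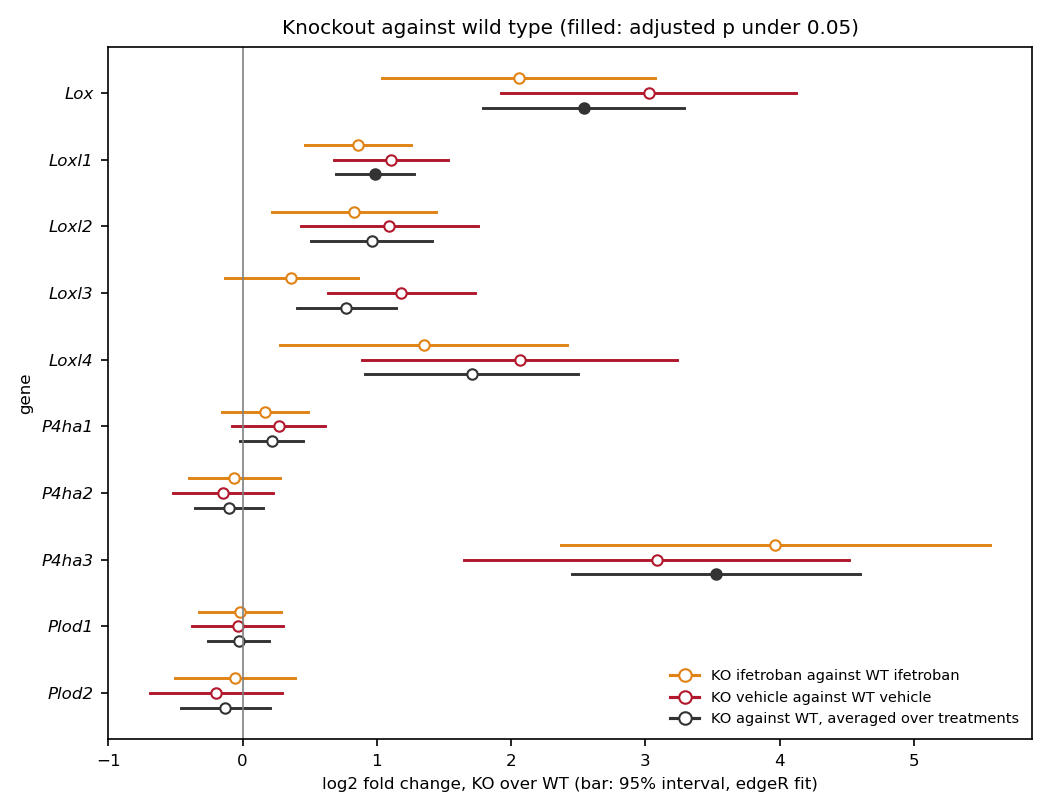
Log2 fold change of KO over WT (x axis) for each of the 10 genes (y axis) within ifetroban, within vehicle and averaged over both; bars are 95% intervals of the edgeR fit and filled points have an adjusted p under 0.05. Filled points are those of Lox (2.54), Loxl1 (0.98) and P4ha3 (3.53) in the averaged comparison. The intervals of P4ha1, P4ha2, Plod1 and Plod2 include 0 in each comparison.

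Within each treatment the genotype comparison rests on fewer libraries. Among ifetroban libraries, 3 KO against 2 WT, 0 members passed an edgeR adjusted p of 0.05, where 0% of all genes were called higher and 0.0131% lower. At an unadjusted p under 0.05, 5 members were higher in KO (Lox, Loxl1, Loxl2, Loxl4 and P4ha3) against 3.85% of genes. Log2 fold changes there were 2.06 ± 0.45 for Lox, 0.86 ± 0.18 for Loxl1, 0.83 ± 0.27 for Loxl2, 0.36 ± 0.22 for Loxl3, 1.35 ± 0.48 for Loxl4 and 3.97 ± 0.71 for P4ha3 (SE). Non-overlap in the same direction was seen for 6 members, P4ha3 included, against 16.1% of genes. DESeq2 called 2 members and 0.397% of genes higher. When KO vehicle 1 was left out of the shared fit, edgeR called 1 member and 0.0381% of genes higher, and when KO vehicle 2 was left out, 1 member and 0.0376%.

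Among vehicle libraries, 2 KO against 2 WT, 0 members passed the adjusted threshold either, where 0.0393% of genes were called higher and 0.0131% lower. At an unadjusted p under 0.05, 6 members (all 5 lysyl oxidases and P4ha3) were higher in KO, against 8.26% of genes. Here the log2 fold changes were 3.02 ± 0.49 for Lox, 1.11 ± 0.19 for Loxl1, 1.09 ± 0.29 for Loxl2, 1.18 ± 0.24 for Loxl3, 2.07 ± 0.52 for Loxl4 and 3.08 ± 0.64 for P4ha3 (SE), with edgeR adjusted p values of 0.120 to 0.242. Non-overlap in this direction held for 7 members, all but P4ha2, Plod1 and Plod2 and so with P4ha3 included, against 16.8% of genes. Leaving out KO vehicle replicate 1 moved Lox to 1.87 and Loxl4 to 1.21, and leaving out both it and WT vehicle replicate 1 moved Lox to 1.64, Loxl4 to 0.85 and P4ha3 to 2.26. P4ha3 was 4.08 without WT vehicle replicate 2 and 2.57 without WT vehicle replicate 1. Leaving out KO vehicle replicate 2 gave 6 called members, while 7.13% of all genes were then called higher, and DESeq2 on all libraries called 5 members and 2.21% of genes.

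The 3 averaged calls depended on which libraries entered. Leaving out WT vehicle 1, WT vehicle 2, WT ifetroban 1, WT ifetroban 2, KO ifetroban 2 or KO ifetroban 3 left 0 of the 3 called, with edgeR adjusted p values of 0.0604 to 0.172 for Lox, 0.0730 to 0.172 for Loxl1 and 0.0730 to 0.239 for P4ha3. Leaving out KO vehicle 2 instead gave 6 called members, with 8.47% of all genes called higher, and leaving out KO vehicle 1 gave 2, with 0.191% of genes. The fold changes over the 9 fits with 1 library left out stayed at 1.96 to 2.85 for Lox, 0.85 to 1.09 for Loxl1 and 3.27 to 4.02 for P4ha3. Between libraries low in long transcripts, 3 KO and 1 WT, the KO minus WT difference in mean log2 CPM was 2.84 for Lox, 1.05 for Loxl1 and 2.69 for P4ha3. Between libraries high in long transcripts, 2 KO and 3 WT, it was 1.90 for Lox, 0.78 for Loxl1 and 2.49 for P4ha3. With this class as a term in the edgeR fit, the log2 fold changes were 2.58 for Lox, 0.99 for Loxl1 and 3.86 for P4ha3, and their edgeR adjusted p values were 0.0988, 0.0569 and 0.0569. The low class held the library labelled WT vehicle replicate 1 as its only WT library.

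Markers of some other cells moved with genotype as well. The summed level of 10 activated fibroblast and myofibroblast markers was 432 to 488 CPM in KO ifetroban and 771 to 840 CPM in KO vehicle, against 234 to 247 CPM in WT ifetroban and 205 to 230 CPM in WT vehicle. For 10 general fibroblast markers it was 1919 to 2610 CPM in KO ifetroban and 2130 to 2639 CPM in KO vehicle, against 1844 to 2147 CPM in WT ifetroban and 1912 to 2064 CPM in WT vehicle. The activated list separated the genotypes, and the sum of the general one overlapped within ifetroban. By gene, 10 of 10 general markers (median log2 fold change 0.28) and 9 of 10 activated markers (1.69) had positive averaged values. Over all genes 49.5% did. The edgeR adjusted p was under 0.05 for 1 general and 5 activated markers, all higher in KO, beside 0.505% of all genes.

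A list of 10 macrophage markers summed to 563 to 620.3 CPM in KO ifetroban and 576 to 783 CPM in KO vehicle, against 262 to 347 CPM in WT ifetroban and 317 to 385 CPM in WT vehicle. Cardiomyocyte markers summed to 74670 to 81730 CPM in KO ifetroban and 64420 to 73960 CPM in KO vehicle, against 88840 to 89610 CPM in WT ifetroban and 85780 to 88620 CPM in WT vehicle. The macrophage sum was thus higher, and the cardiomyocyte sum lower, in each KO library than in each WT library. By gene, 10 of 10 macrophage and 2 of 10 cardiomyocyte markers had positive averaged fold changes, where 49.5% of all genes did. Lists of 8 endothelial markers (805 to 1026 CPM in KO, 774 to 1039 CPM in WT) and 8 smooth muscle and pericyte markers (1138 to 1492 CPM in KO, 1181 to 1611 CPM in WT) overlapped between genotypes. The part of these cells in the enzymes' differences was not tested. In whole tissue, more cells of a type and more RNA per cell cannot be told apart.

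Ifetroban against vehicle in KO ventricles addressed whether the drug altered the response. No member passed an edgeR adjusted p of 0.05 (DESeq2 called 0 as well), and 0% of all tested genes did. At an unadjusted p under 0.05, 2 members were lower with ifetroban, Lox and Loxl3, where 2.42% of genes were. Log2 fold changes were -0.97 ± 0.40 for Lox (95% interval -1.87 to -0.07; edgeR adjusted p = 0.688), -0.37 ± 0.17 for Loxl1 (-0.75 to 0.01), -0.57 ± 0.26 for Loxl2 (-1.15 to 0.01), -0.54 ± 0.21 for Loxl3 (-1.02 to -0.06; edgeR adjusted p = 0.688) and -0.42 ± 0.43 for Loxl4 (-1.39 to 0.55). The hydroxylases had -0.08 for P4ha1, -0.02 for P4ha2, -0.48 for P4ha3, 0.06 for Plod1 and 0.23 for Plod2.

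All 3 KO ifetroban libraries lay under both KO vehicle libraries for Loxl1, Loxl2 and Loxl3, where 7.58% of genes did so. Both KO vehicle libraries and KO ifetroban 1 were low in long transcripts, while KO ifetroban 2 and 3 were high. Treatment and this class thus partly coincide in KO, and their parts cannot be fully told apart. In WT, the low class (WT vehicle 1 alone) and high class averaged 4.26 and 3.63 log2 CPM for Loxl2. These were 5.44 and 5.45 for Loxl1 and 2.38 and 2.70 for Loxl3. For Lox, KO vehicle replicate 2 at 17.9 CPM lay under the KO ifetroban libraries and replicate 1 at 62.2 CPM far above them. Without KO vehicle replicate 1 the log2 fold change was 0.19 for Lox and 0.44 for Loxl4, the other direction, and -0.09 for Loxl1, -0.21 for Loxl2, -0.63 for Loxl3 and -0.14 for P4ha3. Without KO vehicle replicate 2, Lox was -1.60 with an edgeR adjusted p of 0.0122. Loxl3 stayed at -0.63 without the first and -0.43 without the second of that pair of libraries. Summed activated fibroblast and myofibroblast markers, described above, were 432 to 488 CPM in KO ifetroban and 771 to 840 CPM in KO vehicle, and their part in these values was not tested.

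**Figure D4:**
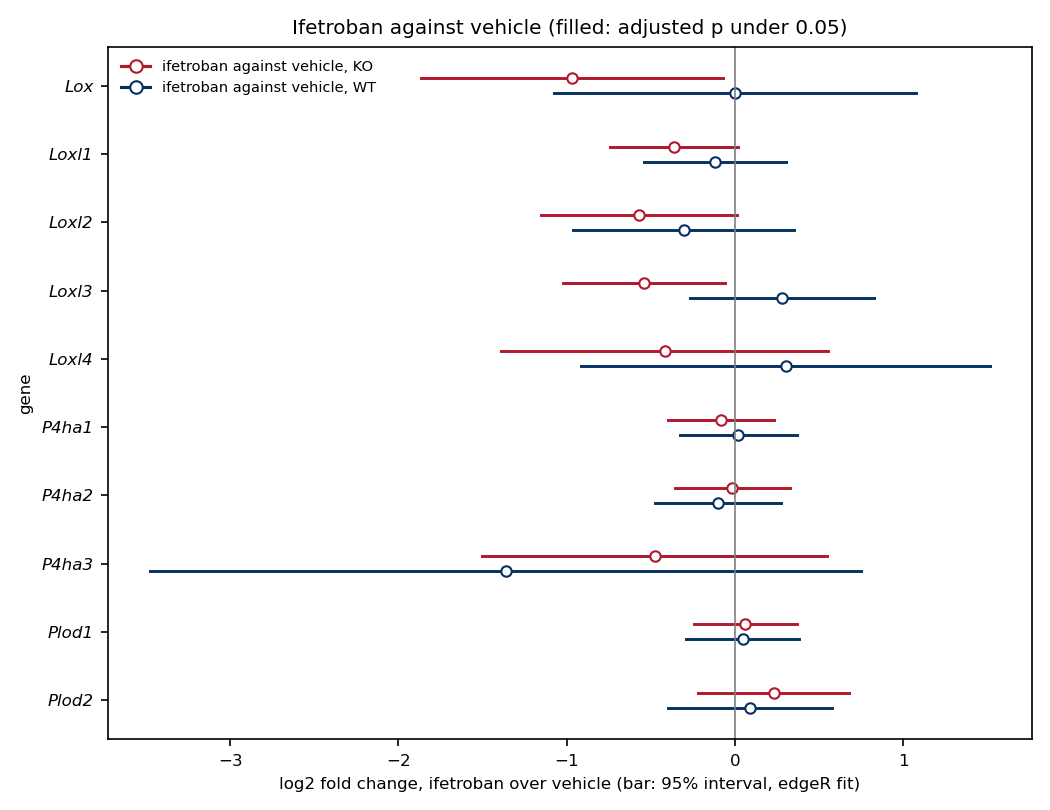
Log2 fold change of ifetroban over vehicle (x axis) for each of the 10 genes (y axis), within KO and within WT; bars are 95% intervals of the edgeR fit, and filled points would mark an adjusted p under 0.05. No point is filled; the KO intervals of Lox (-1.87 to -0.07) and Loxl3 (-1.02 to -0.06) lie below 0, and the others include 0.

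In WT ventricles, with 2 libraries of each treatment, 0 members passed the edgeR adjusted p and 0% of genes did, and 0 members had an unadjusted p under 0.05. Values ran from -1.36 ± 0.94 for P4ha3, which rests on 2 and 5 reads, to 0.30 ± 0.54 for Loxl4 (SE), with Lox at -0.00 ± 0.48 and a 95% interval of -1.08 to 1.08. Plod2 was higher in both ifetroban libraries than in both vehicle libraries, where 14.9% of genes were, and P4ha3 was lower in both, where 16.5% were. The difference between the drug effects in KO and in WT was -0.82 ± 0.33 for Loxl3 (SE; 95% interval -1.55 to -0.09; edgeR unadjusted p = 0.0311 and adjusted p = 1.0) and -0.97 ± 0.63 for Lox (95% interval -2.38 to 0.44). No member passed the adjusted threshold in that comparison, nor did any gene (0%), and Loxl3 was the single member at an unadjusted p under 0.05 in the lower direction, against 0.642% of genes.

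Genes of the surrounding pathway were counted by list in the averaged KO and WT comparison. Of 19 other collagen-modifying and folding genes, 15 had positive fold changes, with a median log2 value of 0.41, and 0 passed the edgeR adjusted p in either direction, while 11 were higher and 1 lower at an unadjusted p under 0.05, where 10.6% of all genes were higher and 5.94% lower. Those with the smallest p were Kdelr3, a retrieval receptor of the endoplasmic reticulum, at 1.14 ± 0.23 (edgeR adjusted p = 0.0628), the prolyl 3-hydroxylase P3h3 at 0.52 ± 0.14, the shared hydroxylase beta subunit P4hb at 0.49 ± 0.13 and Plod3, the lysyl hydroxylase that also adds glucose, at 0.66 ± 0.19 (SE). P4hb had 279.1 ± 42.7 CPM in KO and 201.0 ± 15.3 CPM in WT (SD, n = 5 and 4).

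Of 18 procollagen-processing and fibril-assembly genes, 15 were positive with a median of 0.45, and 3 rose, beside 0.505% of all genes. These were Postn, the matricellular protein periostin and also 1 of the activated fibroblast markers above, at 1.82 ± 0.26 (edgeR adjusted p = 0.0304), Pcolce, which enhances removal of the C-propeptide, at 0.71 ± 0.12 (0.0450), and Fn1, fibronectin, at 1.51 ± 0.25 (0.0450). Adamts2, the N-propeptidase, had 0.79 ± 0.16 and missed the threshold (0.0633). No gene of this list passed in the lower direction. At an edgeR unadjusted p under 0.05, 8 were higher and 2 lower, where 10.6% of all genes were higher and 5.94% lower.

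Of 13 fibrillar collagen and elastin substrates, 10 were tested and 9 were positive, with a median of 0.61. Col1a1 at 0.94 ± 0.15 (edgeR adjusted p = 0.0432), Col5a2 at 0.97 ± 0.15 (0.0432) and Col3a1 at 1.12 ± 0.19 (0.0450) rose, against 0.505% of all genes, 0 genes passed in the lower direction, and Col1a2 had 0.66 ± 0.18 (0.129). At an edgeR unadjusted p under 0.05, 7 substrates were higher and 0 lower, where 10.6% of all genes were higher and 5.94% lower. Col1a1 had 274.8 ± 34.4 CPM in KO and 144.4 ± 24.2 CPM in WT. Lox at 2.54 had a larger log2 fold change than any fibrillar collagen named here, and Loxl1 at 0.98 lay among them. Calls in this list and the one before depended on the libraries too. Without KO ifetroban replicate 2, edgeR called 3 genes higher among all tested genes, so some of these calls were lost. Which ones was not followed.

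Lists of the enzymes' wider chemistry gave 0 genes past the edgeR adjusted p, beside 0.505% of all genes higher and 0.0328% lower. Other oxoglutarate-dependent hydroxylases (8 tested, 2 positive, 0 higher and 2 lower at an unadjusted p under 0.05) had a median of -0.16, with the oxygen-sensing hydroxylase Egln1 at -0.33 ± 0.11 (edgeR adjusted p = 0.182). Hypoxia targets (18 tested, 11 positive, 3 higher and 2 lower) had a median of 0.06. Vitamin C and copper supply genes (8 listed, 5 tested, 3 positive, 1 higher and 0 lower) had a median of 0.06. The higher and lower counts of these lists are at an unadjusted p under 0.05, where 10.6% of all genes were higher and 5.94% lower. In KO ventricles, ifetroban against vehicle gave 0 called genes in each of the 6 lists by the edgeR adjusted p, with medians of -0.27 for the collagen-modifying genes, -0.26 for the processing genes, -0.05 for the substrates, 0.19 for the other hydroxylases, -0.05 for the hypoxia targets and -0.03 for vitamin C and copper supply, beside -0.02 over all genes.

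**Figure D5:**
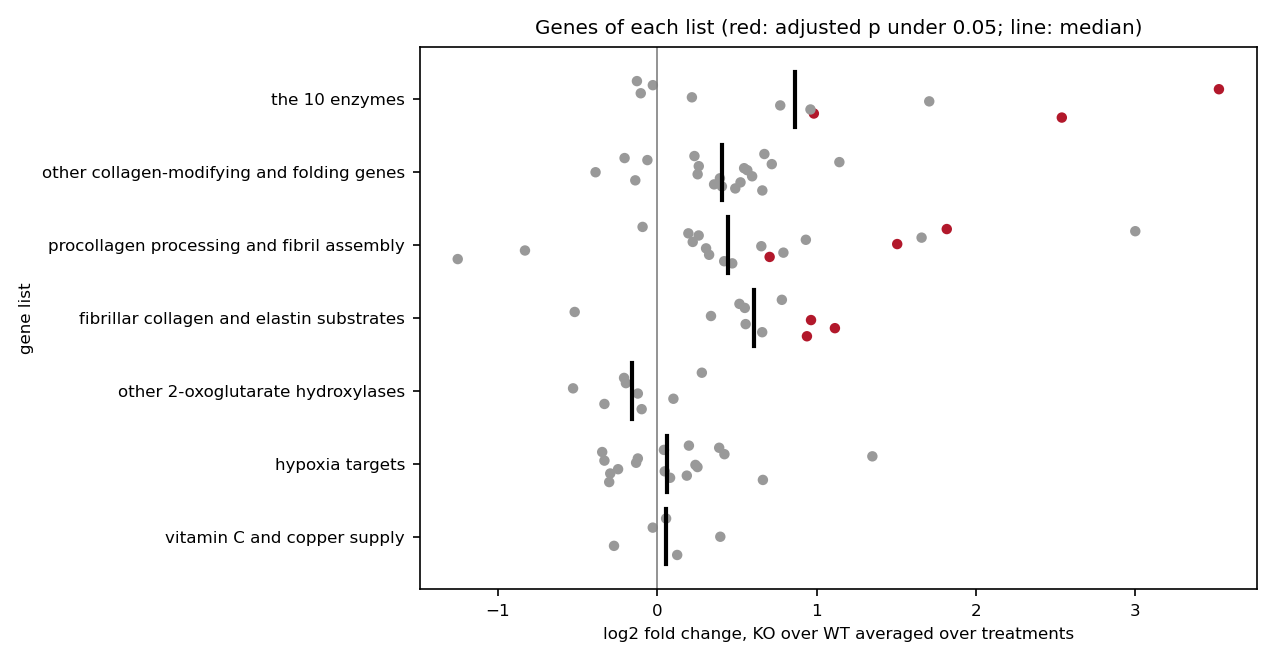
Log2 fold change of KO over WT averaged over treatments (x axis) for each tested gene of the 10 enzymes and of 6 pathway lists (y axis); red points have an edgeR adjusted p under 0.05 and the black line is the list's median. Medians are 0.87 for the enzymes, 0.41, 0.45 and 0.61 for the next 3 lists and -0.16, 0.06 and 0.06 for the last 3, and red points appear among the enzymes, the processing genes and the substrates.

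The members' log2 CPM profiles across the 9 libraries were set beside those of 12059 other genes as a description. The libraries differ in genotype, depth and the length trend described above, and all genes were measured over these same differences. Lox was most like Loxl1 among the members (Pearson r = 0.989) and most like Cyth4 outside them (r = 0.986). Loxl1 was most like Tgfb2, a transforming growth factor ligand, at r = 0.980, and P4ha3 most like the lymphocyte surface gene Ly9 at 0.976 and Loxl1 among members at 0.964. The nearest genes were Dbnl for Loxl2 (0.986), Samd14 for Loxl3 (0.983) and Tnfrsf11a for Loxl4 (0.978). P4ha2 resembled no other member: its highest r was -0.03, with P4ha1. Each is the highest of many values and was picked for that.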

How the data were processed

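For each of the 9 polyadenylated RNA libraries the authors deposited whole-number read counts by gene, not normalized, in the layout of STAR's gene quantification. STAR 2.5.2b, HTSeq and GRCm38 are named, per the submitters' processing notes; the annotation release is not given in the sources used here. The reverse-strand counts were used, since they held 14.5 times those of the forward strand. Reads in rows that name no gene (26.6% to 31.9%) stayed out. Reads with several alignments are not in such counts. Of 49671 identifiers, 49326 were matched to GENCODE M21.

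The 10 genes and the pathway lists were chosen with earlier results of these data known. The test was quasi-likelihood F in edgeR 4.0.16 (R 4.3.3) after TMM normalization and filterByExpr, with 1 coefficient per group and all 9 libraries. Tests were two-sided and p-values adjusted by Benjamini and Hochberg over 15261 genes; the threshold was 0.05. Standard errors were the absolute fold change over the square root of F, and 95% intervals used the moderated degrees of freedom. CPM use the TMM library size, and TPM the union of exons. Counting intervals are exact binomial and cover counting error only. Up to 4 genes per list, those with the smallest p in the averaged genotype comparison, were named. Alternatives were DESeq2 1.42.0, RLE size factors, no filter, unstranded counts, other samples, a replicate block and leaving out libraries. The fit was tested on simulated counts. Within-group replicates differed by 14.2 to 88.1 chi-square per degree of freedom, so none was a duplicate.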

Additional observations from a re-analysis of the deposited data

How the results depend on the processing

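Of 634 values for 38 fold changes under the alternatives, 553 kept direction and side of the threshold, 39 passed it newly, 24 no longer did and 18 changed sign. RLE size factors and unstranded counts changed no count of called members. Called members in the averaged KO and WT comparison numbered 3, against 6 with DESeq2, 6 with no filter, 0 with the length class as a term, 1 without both KO vehicle 1 and WT vehicle 1, and 0 to 6 leaving out 1 library. Among vehicle libraries they were 0, against 5 with DESeq2, 6 with no filter and 0 to 6 leaving out 1 library. Among ifetroban libraries they were 0, against 2 with DESeq2, 4 with no filter, 1 with only the groups compared, 1 without both libraries and 0 to 1 leaving out 1. For ifetroban in KO they were 0, against 1 with no filter and 0 to 1 leaving out 1 library. The cause was not tested.

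Over all genes the averaged comparison called 82, against 723 with DESeq2, 1684 with no filter, 531 with the replicate block, 9 with the length class, 25 without both libraries and 2 to 2098 leaving out 1. Vehicle called 8, against 367, 1195, 45, 1 and 2 under the same settings, 5 with only the groups compared and 1 to 1734 leaving out 1. Ifetroban called 2, against 67 with DESeq2, 428 with no filter, 12 with only the groups compared, 1 with the length class, 14 without both and 1 to 8 leaving out 1. Ifetroban in KO called 0, against 3 with DESeq2, 428 with no filter and 0 to 449 leaving out 1. Ifetroban in WT called 0, against 34 with no filter and 0 to 0 leaving out 1, and the interaction 0, against 73 with no filter and 0 to 0 leaving out 1.

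Signs changed as follows. In the vehicle comparison without both libraries Plod1 was 0.0070 and Plod2 0.076, with ranges leaving out 1 library of -0.10 to 0.025 and -0.57 to 0.10. P4ha2 within ifetroban ranged from -0.16 to 0.046 and Plod1 from -0.10 to 0.061, and Plod1 was 0.0002063 with the length class. In the averaged comparison Plod1 ranged from -0.067 to 0.012 and Plod2 from -0.32 to 0.019, and Plod2 was 0.0099 without both libraries. For ifetroban in KO without both libraries Lox was 0.19 and Loxl4 0.44, with ranges of -1.60 to 0.19 and -0.95 to 0.44. The Lox interaction was 0.42 without both and ranged from -1.59 to 0.19.

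Same-numbered libraries of different groups had deviations correlated by 0.0011 to 0.478 over 12 pairs, which are not separate values, since the 2 libraries of a group mirror each other. In 23 of 24 matches looked at, the best match in the other group had the same number, and these matches mirror each other likewise. The sample titles state no pairing, and the numbers were not taken to pair the libraries. With the replicate block 4 members were called in the averaged comparison, where 2.805% of genes were called higher. Loxl2 was added, at 0.99 and an edgeR adjusted p of 0.00938. Depth limits P4ha3, with 1 to 4 reads per WT library, and Loxl4. A group left with 1 library was assumed to vary like the others. The averaged comparison and the interaction already use all groups, so a fit of only the groups compared gave them no separate value. Single genes of the pathway lists were not followed through the alternatives.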
